A study of Mus musculus with 14 samples.

Results

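S100 genes encode small calcium-binding proteins, and 10 of them (S100a1, S100a3, S100a4, S100a5, S100a6, S100a8, S100a9, S100a13, S100a14 and S100a16) were followed here by the methylation of their promoters. They were looked up by name in the deposited promoter table, and the list was drawn up with earlier results of these data known. The table held a row for 9 of the 10, out of 21965 promoters of 20343 genes, and S100a9 was not analysed here. S100a1 and S100a13 had identical levels in every clone, so that the 9 genes gave 8 distinct patterns.

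The material was 4T1, a mouse mammary carcinoma cell line, from which 23 lines had been grown, each out of 1 sorted cell. Whole-genome bisulfite sequencing reads methylated cytosine as cytosine and unmethylated cytosine as thymine. It was done on 2 clones labelled intravasating (E and T), meaning that they entered the blood vessels when a pool of clones was assessed, and on 4 labelled non-intravasating (I, K, L and P). No clone carried a stated treatment, drug or engineered allele. Each line is 1 clone of 1 tumour cell line, so that differences between clones include whatever set their founder cells apart. Each clone had 1 deposited level per promoter, on a scale from 0 (no methylation) to 1 (full methylation). The read depth behind a level is unknown. RNA was not measured in these files, so that a promoter level says nothing here about how much of a gene was expressed. The promoters of the epithelial genes Epcam, Cdh1, Krt8 and Krt18 were at mean levels of 0.172, 0.0856, 0.139 and 0.258 over the 6 clones, and the labelled mammary origin could not be checked further from methylation alone.

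S100 proteins carry EF-hands, loops that bind calcium, and work mostly as dimers that change shape with calcium and then bind other proteins. Some act inside the cell on the cytoskeleton, on enzymes or on annexins. Others are released and act on receptors such as RAGE and the Toll-like receptor TLR4. In carcinomas, S100A4 (metastasin) is known for its link with motility and spread, and S100A8 with S100A9 (calprotectin) for its abundance in neutrophils and in inflamed or tumour-bearing tissue. Most S100 genes lie side by side next to the genes of the cornified envelope of skin, which in the mouse is on chromosome 3. Methylation at CpG, a cytosine followed by a guanine, is commonly found where a promoter is silent, and promoters rich in CpG are usually free of it.

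The sequences upstream of 6 of the genes are shown because their CpG content ordered their methylation only in part. They come from RefSeq (build GRCm38.p6, 5′ to 3′ on the strand of the gene), with each CpG in capitals. Each is the 250 bases before the start site of the RefSeq window. For S100a1 and S100a13 it is the 104 bases between the start sites of their windows, on the strand of S100a13. The sources used here do not say which bases the authors took as a promoter, so these windows need not be the measured regions. The windows lie at chr3:90514331-90514434 (S100a1 and S100a13, plus strand as shown), chr3:90603520-90603769 (S100a4, plus strand), chr3:90608272-90608521 (S100a5, plus strand), chr3:90612644-90612893 (S100a6, plus strand) and chr3:90668821-90669070 (S100a8, plus strand).
S100a1 and S100a13: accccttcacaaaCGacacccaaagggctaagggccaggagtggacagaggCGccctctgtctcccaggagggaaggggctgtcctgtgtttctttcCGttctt
S100a4: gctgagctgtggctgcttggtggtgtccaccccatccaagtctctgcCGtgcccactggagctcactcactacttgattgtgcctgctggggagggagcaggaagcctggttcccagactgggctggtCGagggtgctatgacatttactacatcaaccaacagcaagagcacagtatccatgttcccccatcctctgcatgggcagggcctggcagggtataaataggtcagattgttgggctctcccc
S100a5: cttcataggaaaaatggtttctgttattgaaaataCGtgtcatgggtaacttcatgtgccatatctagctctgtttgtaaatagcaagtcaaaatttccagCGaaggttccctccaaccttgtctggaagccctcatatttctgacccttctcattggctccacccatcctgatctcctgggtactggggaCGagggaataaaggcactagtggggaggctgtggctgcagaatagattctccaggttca
S100a6: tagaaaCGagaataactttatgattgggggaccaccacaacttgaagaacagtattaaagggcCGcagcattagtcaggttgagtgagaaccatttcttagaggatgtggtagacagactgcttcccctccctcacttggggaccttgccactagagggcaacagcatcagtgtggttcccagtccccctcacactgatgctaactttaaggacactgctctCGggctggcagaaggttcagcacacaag
S100a8: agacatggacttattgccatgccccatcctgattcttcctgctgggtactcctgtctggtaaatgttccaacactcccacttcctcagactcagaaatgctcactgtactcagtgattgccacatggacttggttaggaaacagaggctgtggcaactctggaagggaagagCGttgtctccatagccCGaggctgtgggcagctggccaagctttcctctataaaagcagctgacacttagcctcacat

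Promoter methylation spanned nearly the whole scale within the gene cluster. S100a6 was almost free of methylation, S100a1, S100a13 and S100a4 were low to intermediate, and S100a3, S100a14, S100a16, S100a8 and S100a5 were high. Neighbours in this order had clone ranges apart from each other between S100a6 and S100a1, between S100a13 and S100a4, between S100a4 and S100a3, and between S100a8 and S100a5. The clone ranges of S100a3, S100a14, S100a16 and S100a8 overlapped from each to the next, so that their order is not resolved.

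**Figure D1:**
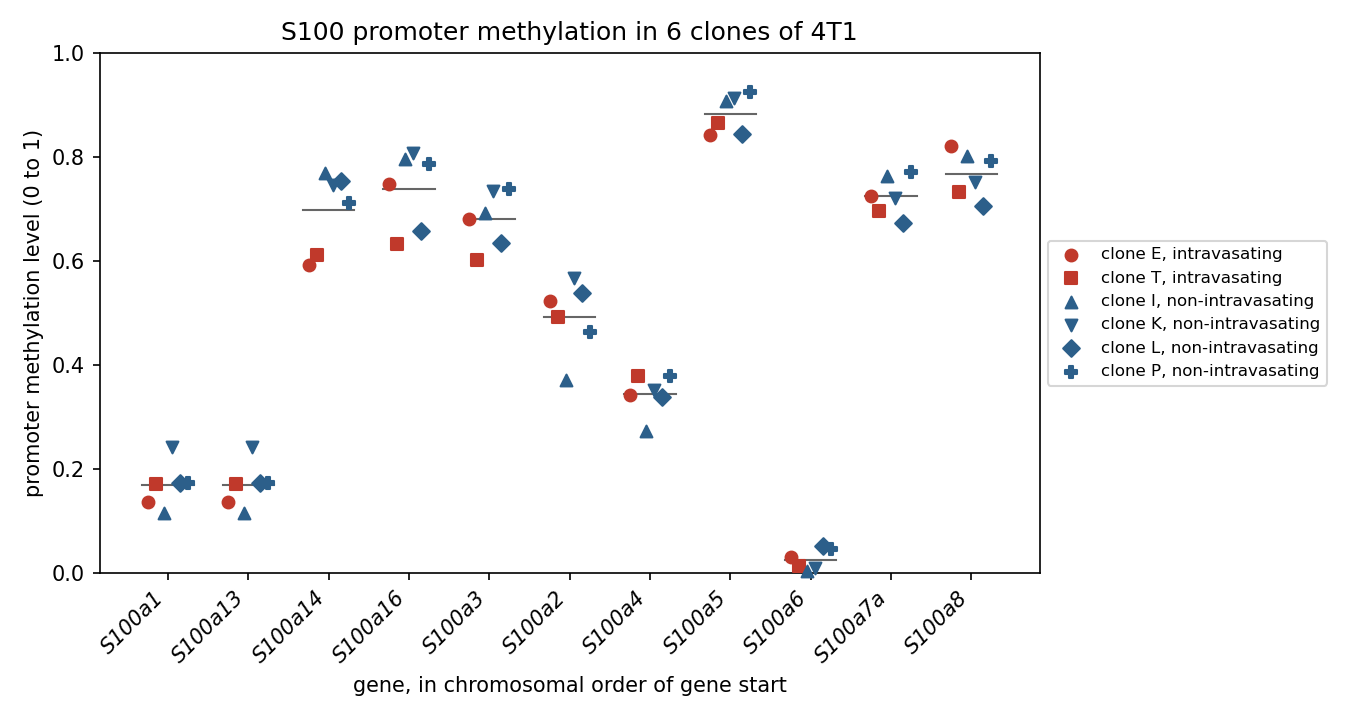
Promoter methylation level (vertical axis, 0 to 1) of each S100 gene of the cluster (the 9 listed genes with S100a2 and S100a7a) in chromosomal order (horizontal axis), with 1 point per clone and a line at the mean of the 6 clones. S100a6, at 0.0264, stands directly after S100a5, at 0.883, and S100a14 is the gene where both intravasating clones (red) lie below all 4 others (blue).

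S100a8, a released protein that forms calprotectin with S100A9, had a methylated promoter in all clones. Its level was 0.822 in E and 0.733 in T, compared with 0.801 in I, 0.753 in K, 0.706 in L and 0.793 in P. Clone E was the highest, whereas clone T lay below every other clone but L, so that the groups overlapped. The mean over the 6 clones was 0.768 ± 0.0446 (SD, n = 6), above 82.4% of all promoters.

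S100a4, which binds non-muscle myosin and regulates motility, had an intermediate promoter level. It was 0.342 (clone E) and 0.378 (clone T), while the non-intravasating levels were 0.273 (I), 0.352 (K), 0.338 (L) and 0.379 (P). Clones T and P were nearly equal at the top and clone I was the lowest. At 0.344 ± 0.0389 (SD, n = 6), S100a4 lay near the middle of all promoters, with 51.0% of them lower.

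S100a6 (calcyclin), which binds annexins and the protein CacyBP, had the lowest promoter level of the 9 genes. It was 0.0311 (E) and 0.0135 (T) in the intravasating pair, against 0.00521 (I), 0.00964 (K), 0.0523 (L) and 0.0464 (P). All 6 clones were thus close to unmethylated, with a mean of 0.0264 ± 0.020 (SD, n = 6), and 8.67% of all promoters were lower.

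S100a5, known from olfactory neurons, lies just before S100a6 on the chromosome and had the highest level of the 9. It was 0.843 in E and 0.865 in T, compared with 0.907 in I, 0.913 in K, 0.844 in L and 0.925 in P. Clones E and L were almost equal at the bottom. The start sites of the printed S100a5 and S100a6 windows are 4372 bases apart, and within each clone the S100a5 level exceeded that of S100a6 by 0.791 to 0.903. Those of S100a4 and S100a5 are 4752 bases apart, and there the excess of S100a5 was 0.487 to 0.635 per clone. The RefSeq gene record of S100a5 begins further upstream, at 90606480, and which start was measured is not known.

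S100a3, a protein of the hair cuticle, was at 0.681 (clone E) and 0.603 (clone T), while the non-intravasating levels were 0.693 (I), 0.734 (K), 0.634 (L) and 0.739 (P). Clone T was the lowest and clone L the next, whereas clone E lay among the non-intravasating clones. The mean was 0.681 ± 0.0541 (SD, n = 6).

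S100a1, a regulator of calcium release in heart muscle, and S100a13, which takes part in the release of the growth factor FGF1, have RefSeq window start sites with 104 bases between them, on opposite strands. The gene record of S100a13 begins earlier, at 90514233, inside that of S100a1, which ends at 90514330. Their 300-base RefSeq windows share 204 bases. Both were listed at 0.136 (E) and 0.171 (T) in the intravasating pair, against 0.115 (I), 0.243 (K), 0.173 (L) and 0.174 (P). Clone K was the highest and clone I the lowest, both non-intravasating. The 2 rows cannot be told apart and count as 1 measurement, with a mean of 0.169 ± 0.0435 (SD, n = 6).

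S100a16, a widely expressed member, was at 0.748 in E and 0.633 in T, compared with 0.796 in I, 0.808 in K, 0.658 in L and 0.786 in P. Clones T and L were low and the other 4 lay close together. The mean was 0.738 ± 0.0751 (SD, n = 6). S100a14, an epithelial member, was at 0.593 (clone E) and 0.612 (clone T), while the non-intravasating levels were 0.769 (I), 0.747 (K), 0.755 (L) and 0.712 (P). Here both intravasating clones were below all the others, clone L included. Its range over the clones, 0.176, was the widest of the 9 genes, followed by S100a16 at 0.175. None of the 9 genes had a range of at least 0.2, which 10.6% of all promoters reached.

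CpG content ordered the genes by methylation only in part. In the 300-base RefSeq windows (250 bases before the start site and 50 after it), S100a13 had 14 CpG and S100a1 had 11, S100a6 had 6, S100a8 had 4, S100a5 had 3 and S100a4 had 2. S100a3 had 4 alternative windows with 0 to 5 CpG and S100a16 had 2 windows with 2 and 4, and which of them was measured is not known. S100a14 was not matched. Among the listed genes with a single window, S100a13, S100a1 and S100a6 had the most CpG and the lowest levels. S100a4 had the fewest CpG and the next lowest level. Across 11848 genes with a single window and a single row, more CpG per 100 bases went with a lower level, with a Spearman rho of -0.40 across genes, which are not independent replicates.

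S100a6 departed most from genes of equal CpG count. Of 350 promoters with 6 CpG, 3 had a lower mean level than S100a6, and the median of the 350 was 0.634. S100a5 lay at the other end, above 612 of the 644 promoters with 3 CpG, whose median was 0.582. S100a8 lay above 78.0% of 455 promoters with 4 CpG. S100a4 was higher than 30.5% of 774 promoters with 2 CpG, and S100a13 than 40.5% of 247 with 14. As seen in the printed sequences, S100a6 has 3 CpG in the 250 bases before its start site and S100a5 also has 3. In the 300-base windows, which the comparison above used, S100a6 has 6 and S100a5 has 3. Whether CpG count sets these neighbours apart thus depends on the window, and the measured bases are not known.

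**Figure D2:**
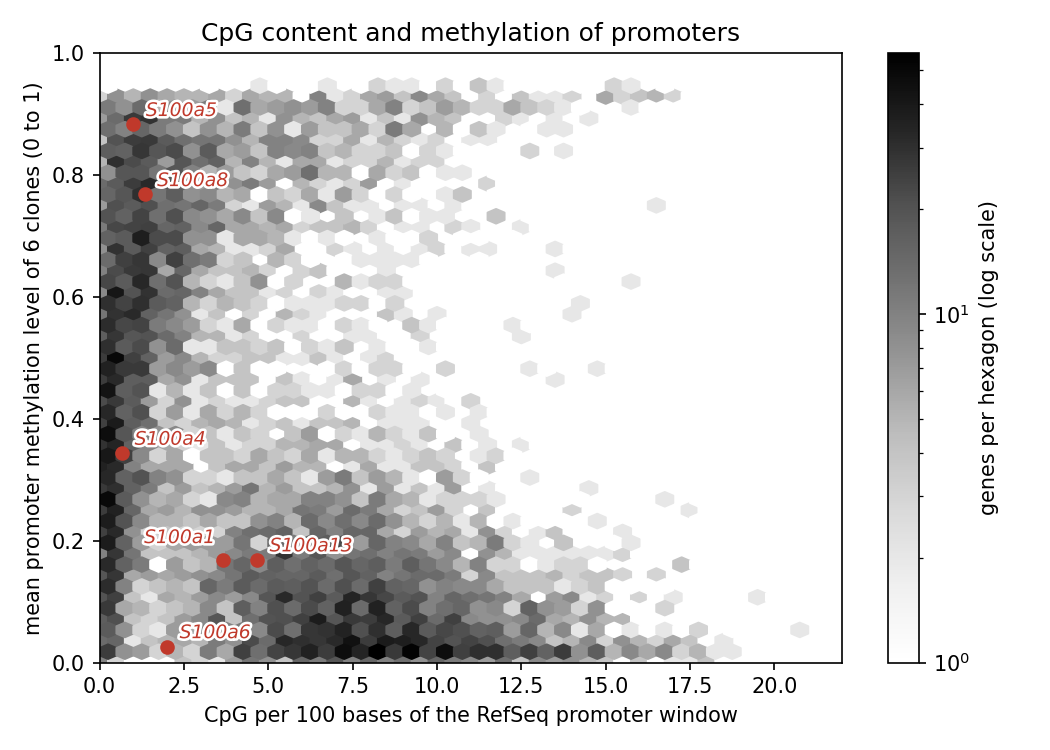
Mean promoter level of the 6 clones (vertical axis, 0 to 1) against CpG per 100 bases of the RefSeq window (horizontal axis) for 11848 genes, shown as hexagons shaded by the number of genes on a log scale, with 6 S100 genes as red points. S100a6 lies at the bottom at 2.0 CpG per 100 bases, and S100a5 near the top at 1.0.

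The comparison named in the study's design set the intravasating against the non-intravasating clones. S100a14 had the largest difference of the S100 genes and S100a16, S100a3 and S100a5 smaller ones of the same sign, while S100a4 and S100a8 had slightly higher means in the intravasating clones. With limma over all promoters, no S100 gene of the 9 passed an adjusted p of 0.05, beside 0.00911% of all promoters. At an unadjusted p under 0.05 there was 1 of the 9, S100a14, beside 3.93% of all promoters. The identical rows of S100a1 and S100a13 were counted once. The means were then lower in the intravasating clones for 6 of 8 patterns, against 57.5% of all promoters. The median difference was -0.0329 against -0.00424. The 8 patterns had a median level of 0.689, against 0.328 for all promoters. At the 7049 promoters with a mean of at least 0.6 the median difference was -0.0136. At the 5 S100 genes with such a mean it was -0.0581. Simulated differences of 0.1 and 0.2 were not recovered by the fit. The simulated noise of a promoter was its SD over all 6 clones, which takes in any group difference. At S100a14 that SD was 0.0767, against 0.0134 and 0.0244 within the groups. Recovery at S100a14 itself thus cannot be read from the simulation. A missing call does not show equal levels.

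S100a14 was at 0.602 ± 0.0134 (SD, n = 2) in the intravasating and at 0.746 ± 0.0244 (SD, n = 4) in the non-intravasating clones. The difference was -0.143 (SE 0.0322), with an interval from limma of -0.217 to -0.0703 at 95%, not adjusted for the number of promoters, and the limma adjusted p was 1.00. S100a14 was the only one of the 9 genes whose groups did not overlap with the intravasating clones lower, and 6.89% of all promoters were so placed. The gap between clones T and P was 0.1002, just over the minimum of 0.1, which 0.0819% of all promoters reached in this direction. Of all promoters, 0.537% had a difference at or below that of S100a14.

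The other differences lay within the spread between clones. S100a16 differed by -0.0712 (interval -0.186 to 0.0433), S100a3 by -0.0581 (-0.155 to 0.0386) and S100a5 by -0.0431 (-0.102 to 0.0162). The difference of S100a16 was -0.0136 without clone T and -0.129 without clone E, and that of S100a3 was -0.0189 and -0.0974. S100a1 and S100a13 differed by -0.0227 (-0.100 to 0.0551) and S100a6 by -0.00609 (-0.0383 to 0.0261). S100a4 differed by 0.0244 (-0.0854 to 0.134) and S100a8 by 0.0145 (-0.0715 to 0.101). These intervals take in differences of either sign. The signs of S100a6 and S100a8 were not stable. That of S100a6 turned without clone T (0.00274), without clone L (0.00188) and after centring the clones (0.00136), and that of S100a8 turned without clone E (-0.0300) and without clone L (-0.00455).

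**Figure D3:**
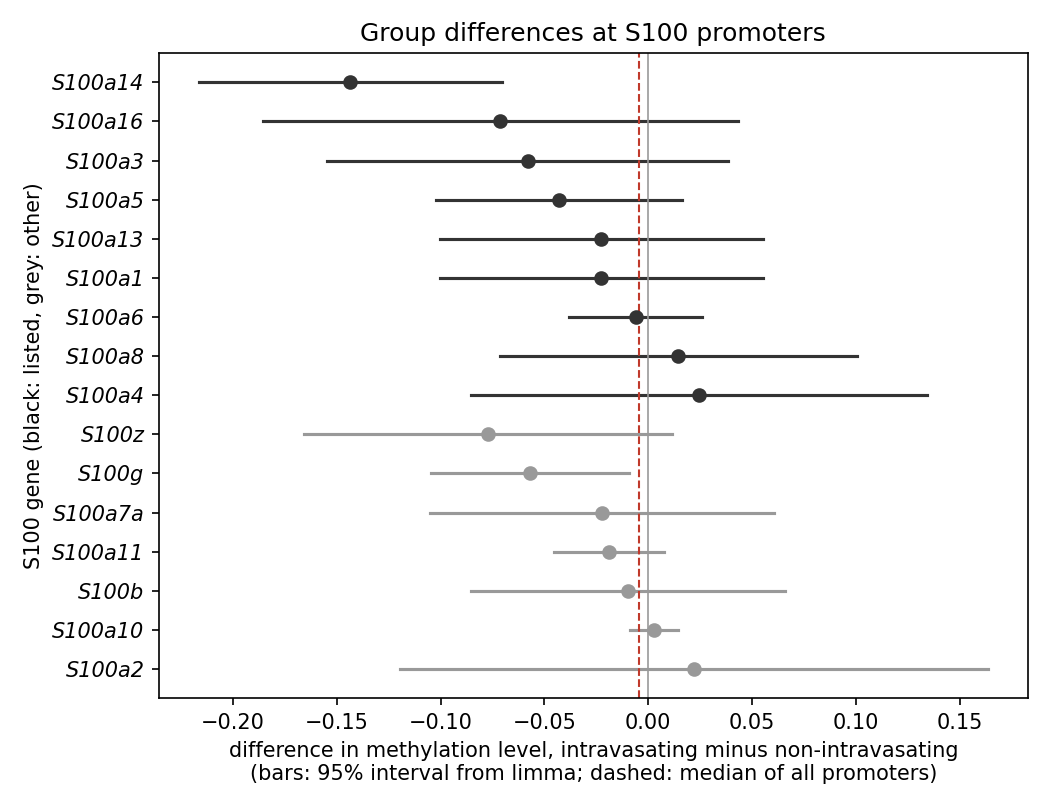
Difference in promoter methylation level (horizontal axis, intravasating minus non-intravasating) for the 9 listed S100 genes (black) and 7 other S100 genes (grey), with points at the difference, bars for the 95% interval from limma and a dashed line at the median of all promoters, -0.00424. Among the listed genes, the bar of S100a14 alone lies wholly below 0, and S100g is the grey bar that does so.

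The clones also differed in level over many promoters at once. Among the 5 S100 genes with a mean of at least 0.6 (S100a3, S100a5, S100a8, S100a14 and S100a16), clone T lay below the mean of the 6 clones in every one, by a median deviation of -0.0780. Over the 7049 promoters with such means, the median deviation of clone T was -0.0216. Clone L had a median deviation of -0.0465 in the 5 genes and of -0.0360 in the 7049 promoters. S100a14 was the exception in clone L, at 0.0569 above its mean. Clones I and P were above the mean in all 5 genes, and their median deviations over the 7049 promoters were 0.0208 and 0.0167. In that set the intravasating mean was the lower one at 70.1% of promoters, against 4 of the 5 S100 genes. After each clone was centred on its median, the difference of S100a14 was -0.136 and that of S100a16 was -0.0638. The centring used each clone's median over all promoters, where clones T and L had smaller median deviations of -0.0119 and -0.0170. It thus need not remove the deviations of promoters with a mean of at least 0.6. The part of the clone-wide levels in the S100 differences was not tested beyond this centring.

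**Figure D4:**
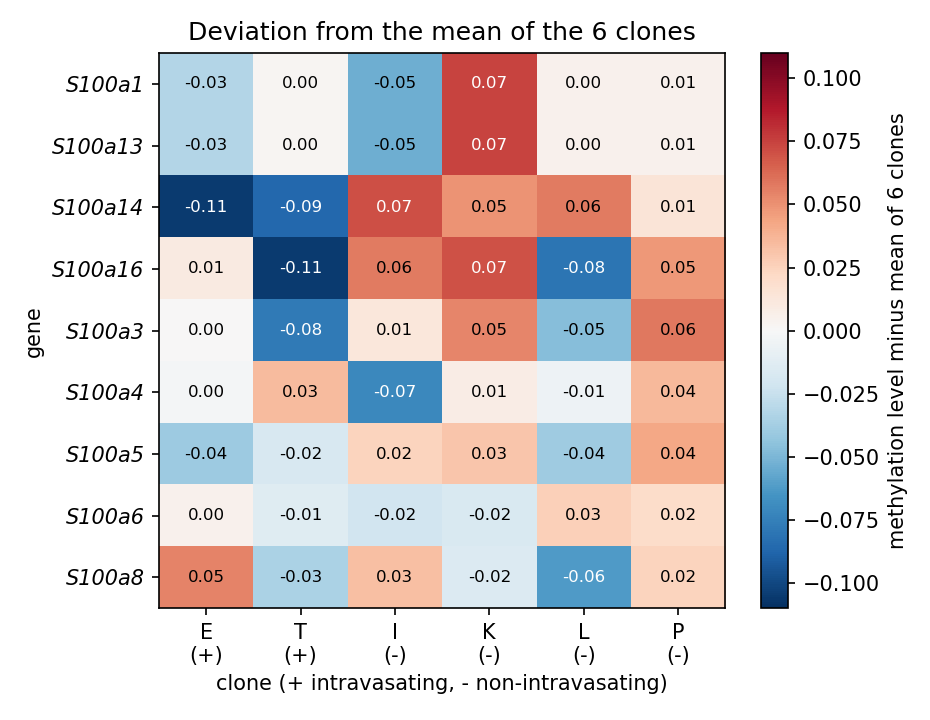
Deviation of each clone from the mean of the 6 clones (colour and number, in units of methylation level) for the 9 S100 genes (rows) and the clones (columns, intravasating marked + and non-intravasating -). Clones E and T share a deviation of about the same size at S100a14, -0.105 and -0.0862, whereas at S100a16 and S100a3 the low clones are T and L.

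The promoters most like S100a14 over the 6 clones were sought among 9624 other promoters with a range of at least 0.1, by the mean absolute difference of levels after subtraction of each promoter's mean. Among the closest were Shisa5 (0.0116), Prl2c2 (0.0140), Ncoa7 (0.0142) and 0610043K17Rik (0.0170). As an example, Shisa5 was at 0.457 (E) and 0.454 (T) in the intravasating pair, against 0.627 (I), 0.572 (K), 0.586 (L) and 0.552 (P). None of these 4 was called by limma. They are given as a description of these 6 clones.

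Of 9 other S100 names, 7 had a row. S100a10, the partner of annexin A2, was close to unmethylated at 0.00636 ± 0.00321 (SD, n = 6), and S100a11 was at 0.0701 ± 0.0149 (SD, n = 6). S100a2, which sits inside the cluster, was at 0.493 ± 0.0697 (SD, n = 6), with clone I lowest at 0.371 and clone K highest at 0.567. S100a7a was at 0.725, S100z at 0.732, S100b at 0.825 and the X-linked S100g at 0.895 as means over the 6 clones. None of the 7 was called by limma, and 1 of them, S100g, had an unadjusted p under 0.05, beside 3.93% of all promoters. S100g was at 0.848 in E and 0.866 in T, compared with 0.897 in I, 0.935 in K, 0.892 in L and 0.931 in P, so that its groups did not overlap, with a gap of 0.02565. The groups of S100a11 did not overlap either, by a gap of 0.000195. Such non-overlap with the intravasating clones lower, seen at 2 of the 7, was seen at 6.89% of all promoters. S100a10, S100a11 and S100a6 were the S100 genes below 0.1.

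The fused-type genes, whose proteins begin with an S100 domain, had 6 of 7 names in the table and no calls. They ran from Hrnr at 0.455 to the trichohyalin gene Tchh at 0.872. Lower means in the intravasating clones were seen at 5 of 6, beside 57.5% of all promoters. Of the 6, 3 had a range of at least 0.2, beside 10.6% of all promoters. Of 32 cornified envelope genes none was called. They ran from the involucrin gene Ivl at 0.0289 to Lce1m at 0.721. Of the 32, 22 were lower and 10 higher in the intravasating clones, beside 57.5% lower among all promoters. A range of at least 0.2 was seen at 19 of them, beside 10.6% of all promoters. The read depth at these genes is unknown, and the part of low counts in their ranges and differences was not tested. Sprr2i was at 0.756 (clone E) and 0.754 (clone T), while the non-intravasating levels were 0.657 (I), 0.559 (K), 0.582 (L) and 0.623 (P), with a gap of 0.0970 in the higher direction. In the lower direction the groups did not overlap at 5 cornified envelope genes (Lce1a1, Lce1c, Lce3f, Lce6a and Sprr2b), each with a smaller gap. That was 15.6% of the 32, beside 6.89% of all promoters. In the higher direction it was 1 of the 32, Sprr2i, beside 947 of all 21965 promoters. The differences of Lce3f (-0.228, interval -0.379 to -0.0762) and Lce1a1 (-0.167, interval -0.295 to -0.0385) were larger than that of S100a14, and the limma adjusted p was 1.00 for both. Of the 6 flanking genes, 3 had a row: Ilf2 at 0.0688, Snapin at 0.143 and Pglyrp4 at 0.413, and none was called.

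The median level was 0.127 over 8 promoters of receptor genes, of which 3 belong to Cd36 and lie above that median. It was 0.0659 for intracellular partners of S100 proteins, beside 0.328 for all promoters. Of 7 receptor genes 6 had a row, with 8 promoters, 5 lower and 3 higher in the intravasating clones and none called. The neuroplastin gene Nptn was the lowest at 0.0125 and 1 of the 3 promoters of Cd36, a scavenger receptor gene, the highest at 0.667. Bsg, which encodes the receptor basigin, was at 0.230 (E) and 0.231 (T) in the intravasating pair, against 0.130 (I), 0.128 (K), 0.169 (L) and 0.179 (P), with a gap of 0.0502 and a limma adjusted p of 1.00. In the lower direction the groups of Alcam (gap 0.0138) and Nptn (gap 0.0033) did not overlap. These were 2 of the 8 promoters, beside 6.89% of all promoters. In the higher direction it was 1 of the 8, Bsg, beside 947 of all 21965 promoters. Tlr4 was at 0.0772. Of 13 intracellular partner genes, 7 were lower and 6 higher in the intravasating clones and none was called. Among all promoters 57.5% were lower, as a background for the receptors and for the partners. These 13 partner genes had 1 promoter each. They ran from Myh9, the non-muscle myosin gene, at 0.00948 to Ryr2, the calcium release channel gene of heart, at 0.913. The annexin genes Anxa1, Anxa5 and Anxa2 were at 0.00954, 0.0659 and 0.162.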

How the data were processed

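Genomic DNA of 4T1 clones was bisulfite converted and sequenced, per the labels' protocols, in 2 rounds per clone. The deposited promoter values were fractions from 0 to 1 with 1 column per clone. The aligner, the promoter boundaries, the coverage and the way the rounds were combined are not stated in these sources. Per the submitters' processing notes, bedtools, DESeq and the build mm10 were named, with no role stated. The parental line and the hypomethylated regions, whose build was not established, were not analysed here.

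Of 22110 rows, 145 repeated a gene with identical levels and were counted once. The levels were fitted in R 4.3.3 with eBayes of limma 3.58.1 and its mean trend, 2 intravasating against 4 non-intravasating clones, with Benjamini-Hochberg adjustment over 21965 promoters. The step was tested on simulated data, where it recovered 84.5% of differences of 0.4 and none of those of 0.1 or 0.2. The labels do not name separate cultures, so that errors measure the spread between these clones. No count test applied, since the table holds levels alone. Promoter windows and gene starts came from RefSeq (GRCm38.p6), and 9 of the 10 names matched a window. Other steps ran under Python 3.11.15 (SciPy 1.17.1, NumPy 2.4.6, pandas 2.3.3). All S100 genes were named, and genes of the other lists when called, when the groups were at least 0.05 apart, or as the lowest and highest of a list, with up to 4 more. The 5 cornified envelope genes with non-overlapping lower groups, and Alcam among the receptors, were named after their values were seen. One gene that the rule named is not reported here. The epithelial genes Krt8, Krt18, Epcam and Cdh1 were given as a check. The members and lists were chosen with earlier results of these data known, and the levels at a mean of at least 0.6 and the comparison at equal CpG count were chosen after seeing the data. Alternatives were the logit scale (bounded at 0.01 and 0.99), the arcsine scale, a fit without the mean trend, centring of each clone on its median, a range of at least 0.1, all rows, a threshold of 0.10, other gaps and ranges, the observed over expected CpG ratio, and each clone left out.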

Additional observations from a re-analysis of the deposited data

Results flagged for a closer look

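The S100a16 promoter in clone L, at 0.658, stood apart from the other non-intravasating clones, of which the nearest was at 0.786. The distance between them was 0.853 of the range of the 4 clones, over Dixon's 95% critical value for a group of 4. This was 1 of 16 promoters looked at in this way, and chance gives such a value in about 1 in 20 groups.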

How the results depend on the processing

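No S100 gene was called under any alternative run, and 67 of 72 refitted differences kept their sign, with S100a1 and S100a13 counted once and without the settings that cannot move a difference (no mean trend, the range filter). The 5 that turned were those of S100a6, at 0.00136 after centring and -0.0149 to 0.00274 with a clone left out, and of S100a8, at -0.0300 to 0.0591 with a clone left out. The difference of S100a14 was -0.155 to -0.134 with a clone left out, and its limma adjusted p was 0.540 to 1.00 over the alternatives. Over all promoters limma called 2, but 0 without the mean trend (943 with an unadjusted p under 0.05), 5 after centring, 25 when the range had to reach 0.1, and 0 to 4 with a clone left out (0 without clone L, 4 without clone E). Promoters with a gap of at least 0.1 in either direction numbered 28, with S100a14 as the only member. They numbered 2 at a gap of 0.2 (0 members), 152 at 0.05 and 47 to 336 with a clone left out. A smaller group makes a gap easier to reach by construction. A range of at least 0.2 was reached by 2328 promoters, of at least 0.1 by 9625 (7 of the 9 members, S100a1 and S100a13 both counted) and of at least 0.3 by 558. The Spearman rho of level with CpG content was -0.44 with the observed over expected ratio. The cause of these shifts was not tested. No paired analysis was possible because the rounds have no columns of their own and the groups hold different clones. Depth is unknown, so that no counting error can be given.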
